A study of Mus musculus with 9 samples.

Results

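Oxidative phosphorylation genes were followed in the mouse lens at 15.5 days post conception. Members were taken by gene symbol: every symbol starting with Nduf, Uqcr, Atp5 or mt-, every symbol of Cox followed by a digit, and Sdha, Sdhb, Sdhc and Sdhd. This gave 103 of the 7676 genes listed once in the tables of inbred wild type lenses, 90 from the nuclear genome and 13 from the mitochondrial genome. The tables of the mixed-background groups hold 190 genes, and 4 of those are members: mt-Atp6, mt-Nd6, Ndufa1 and Ndufb4. The rule collects subunits, tissue isoforms and, by their names, 13 assembly factors and related genes, so not every member is a subunit.

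The study measured RNA in 3 groups of 3 libraries, each library pooling 30 lenses. Inbred wild type lenses were of the strain C57Bl/6<har>. Mixed wild type lenses were Sip1 flox/flox without Cre on a mixed background, and conditional knockout (cKO) lenses were Sip1 flox/flox with MLR10Cre on the same kind of background. Both mixed-background groups therefore carried the floxed alleles, and the cKO alone carried the transgene, a lens-specific source of Cre recombinase. Sip1 is the protein of the gene Zeb2, a zinc finger factor that acts mainly as a repressor. Zeb2 was not among the 190 genes used here, and the loss of Sip1 was therefore not checked in these libraries. Depth, recovered from the steps between deposited values, was 14.1 to 16.7 M (mega) reads for the inbred libraries, 38.7 to 44.1 M for the mixed and 25.9 to 27.4 M for the cKO libraries. Depth and group cannot be told apart. All 8 lens fibre and all 4 lens epithelium markers were listed in the inbred libraries, as were 5 of 8 erythroid, 3 of 4 vessel, 2 of 7 muscle, 0 of 3 leukocyte and 0 of 4 retinal and neuronal markers. The muscle markers include the complex IV isoform genes Cox6a2, Cox7a1 and Cox8b. The 2 listed were Actn2 and Cox6a2, the latter itself a member.

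Oxidative phosphorylation passes electrons from NADH and succinate through complexes I, II, III and IV of the inner mitochondrial membrane to oxygen, and complex V (ATP synthase) uses the proton gradient so formed to make ATP. Complexes I, III, IV and V combine a few subunits encoded in mitochondrial DNA with many encoded in the nucleus, whereas complex II is wholly nuclear. In the lens, mitochondria are kept in the epithelium and outer fibres and are cleared from fibre cells as these mature, and glycolysis is a main source of ATP.

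The 4 members measured in all 9 libraries are introduced by the sequences that bear on their values. The mt-Atp6 and mt-Atp8 genes, which encode membrane subunits a and A6L of ATP synthase, overlap on the mitochondrial genome by 43 bases. The gene model Gm10925 holds a nearly complete copy of mt-Atp6, identical over bases 1 to 678 of 681. The sequences below, from GENCODE M21 transcripts, show 83 bases of each, with the overlap in capitals.
mt-Atp8, last bases: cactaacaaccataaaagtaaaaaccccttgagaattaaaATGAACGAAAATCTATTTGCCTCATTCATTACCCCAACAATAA
mt-Atp6, first bases: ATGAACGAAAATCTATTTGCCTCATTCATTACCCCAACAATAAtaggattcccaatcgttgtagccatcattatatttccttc
Gm10925, same bases: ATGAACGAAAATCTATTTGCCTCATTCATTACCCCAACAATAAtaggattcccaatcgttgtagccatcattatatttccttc
A read from any of these 83 bases of mt-Atp6 matches Gm10925 as well, and one from the capitals can belong to mt-Atp8 too. mt-Nd6, a membrane subunit of complex I, lies on the mitochondrial strand opposite to mt-Nd5 and overlaps it by 14 bases. The library kit named in the labels does not mark strand, so reads of mt-Nd6 and of RNA from the opposite strand cannot be told apart.

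Ndufa1 and Ndufb4 are nuclear accessory subunits of complex I. Their RefSeq promoter windows (GRCm38.p6, 250 bases before to 50 after the start) differed in the words they held. Before the start, the Ndufa1 window had a single CACCTG, the word bound by ZEB factors, beginning at position −195, within chrX:37191416-37191445 (minus strand). It had no match to the words searched for NRF1, GABPA (an ETS factor), YY1 or ERRa, which are factors known for nuclear genes of mitochondria. The Ndufb4 window had the NRF1 word with 2 free central bases 3 times before its start, at positions −191, −79 and −22, and had no CACCTG. These words are in capitals, and each run is written 5′ to 3′ on the strand of the gene.
Ndufa1 word 1: gaggaacgtgcaCACCTGacgggtagaatt
Ndufb4 word 1: gagaagcagtGCGCACGCGCagaatacgcg
Ndufb4 word 2: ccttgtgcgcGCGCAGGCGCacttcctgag
Ndufb4 word 3: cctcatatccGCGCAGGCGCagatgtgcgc
The 3 Ndufb4 runs lie at chr16:37654540-37654569, chr16:37654428-37654457 and chr16:37654371-37654400 (minus strand). A match describes these letters and is not evidence of binding.

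In the inbred wild type lens, mitochondrial genes led the set and complex IV had the highest sum of the complexes. Levels are in RPKM, reads scaled to exon length and to the mapped reads of the library, which sets genes on a scale per length, though the length assumed for a gene can change its place, as described further on. Summed over the 103 members the level was 23738, 20190 and 19082 RPKM in replicates 1, 2 and 3, or 4.14% ± 0.381 (SD, n = 3) of all listed RPKM. As a share of reads of listed genes, which does not divide by length, this was 2.46% ± 0.263. The median member stood at 53.0 RPKM against 7.65 RPKM for all listed genes, and 88 of 103 members lay above the latter. Of the 20 highest genes in the list 4 were members, and of the 1000 highest 69 were. The median coefficient of variation between libraries was 7.0% for members and 7.21% for all listed genes, but it was 13.7% for the mitochondrial and 6.53% for the nuclear members.

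All 13 mitochondrial protein genes were listed, and their sum was 14829 ± 2120 RPKM (SD, n = 3), 70.6% of the members' sum. The 90 nuclear members summed to 6174 ± 313 RPKM. None of the 22 tRNA and 2 rRNA genes of the mitochondrial genome was listed. The ratio of the mitochondrial to the nuclear sum was 2.64, 2.34 and 2.21 in the 3 libraries. By complex, the sums were 8037 ± 938 RPKM for IV (17 genes), 7058 ± 924 for I (43 genes), 3408 ± 212 for V (17 genes), 2297 ± 367 for III (9 genes) and 138 ± 3.68 for II (4 genes). Among nuclear genes alone the order of IV and I turned, with 1706 ± 94.1 RPKM for IV and 2280 ± 156 for I. The 13 assembly factors and related genes together reached 65.6 ± 3.3 RPKM.

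**Figure D1:**
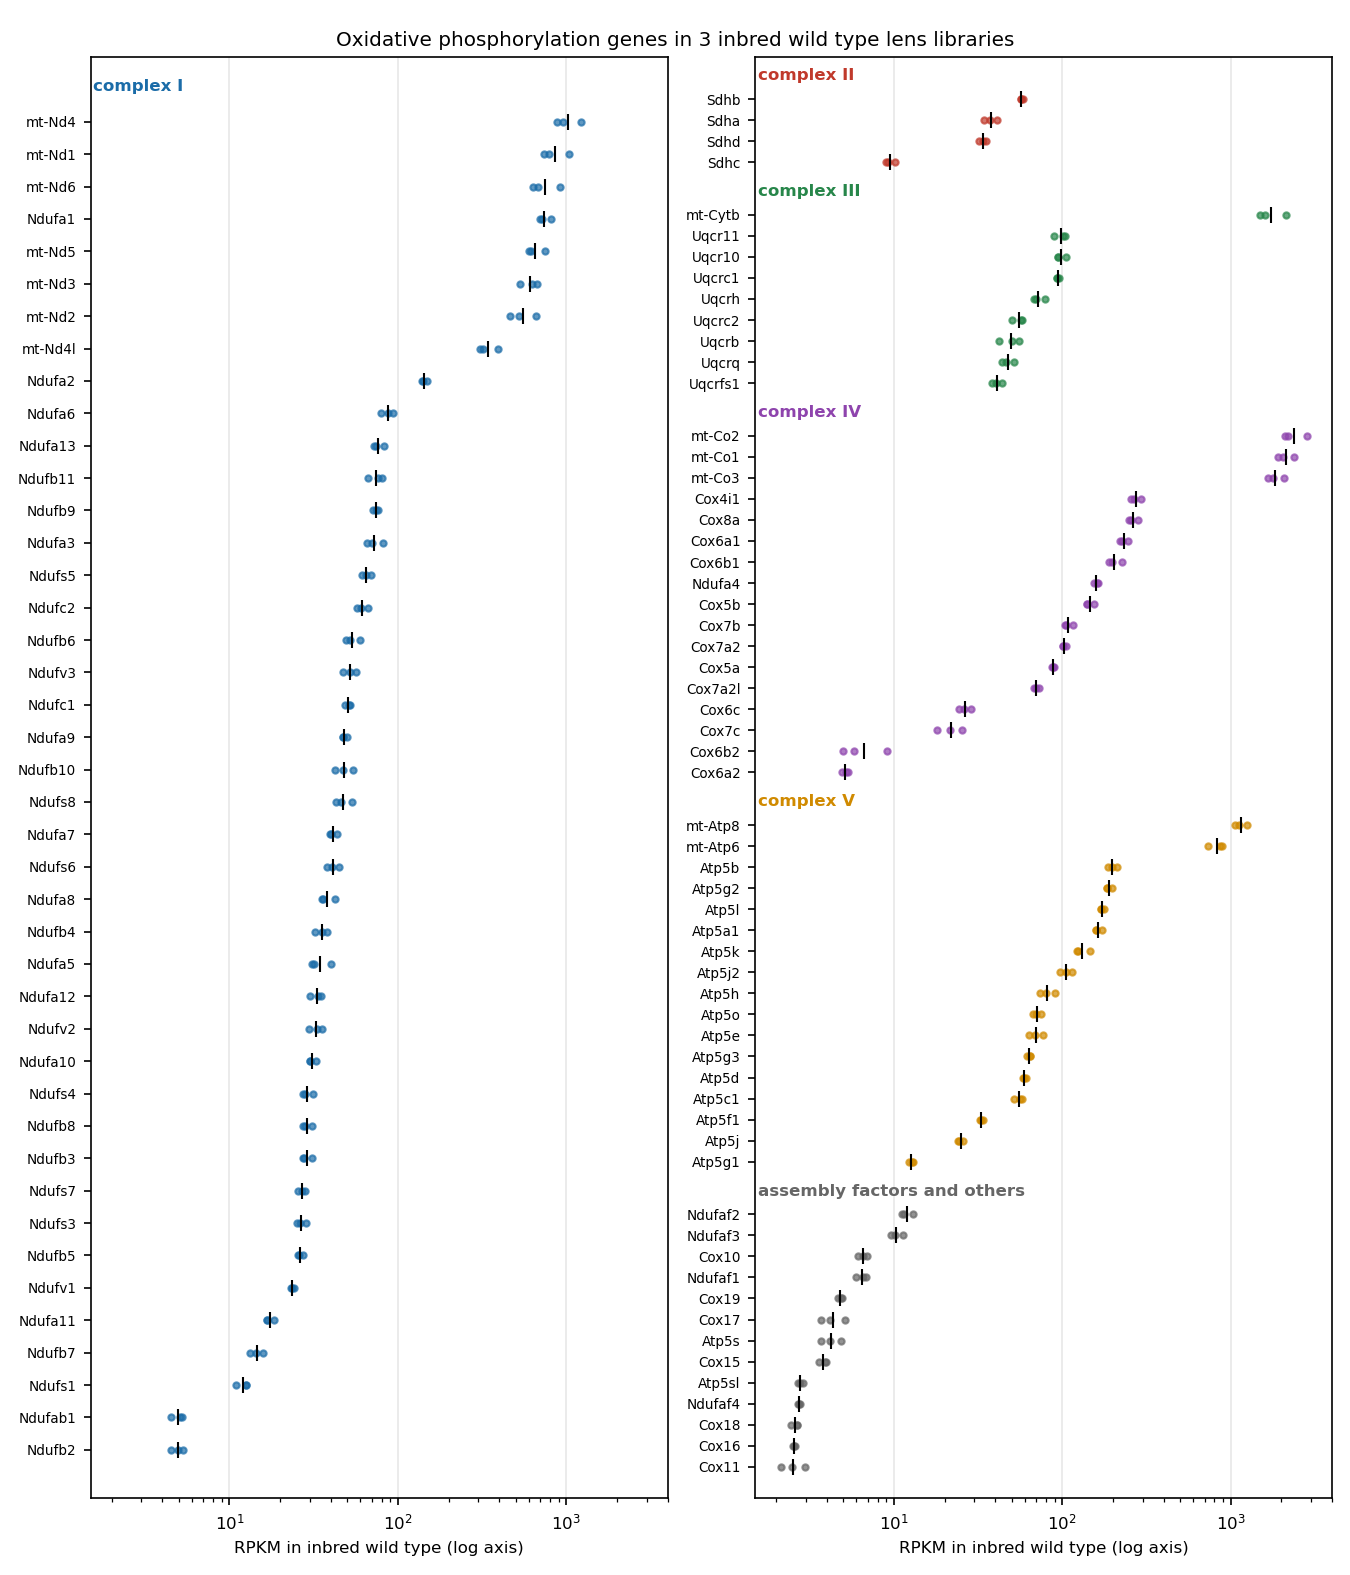
RPKM (log axis) of the members named in the axis labels in the 3 inbred wild type libraries, ordered within each complex; points are libraries and bars are means. Mitochondrial genes stand at the top of complexes I, III, IV and V, with Ndufa1 the only nuclear member among the mitochondrial genes of complex I, and the assembly factors stay below 14 RPKM.

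Complex I takes electrons from NADH. Its 7 mitochondrial genes, which form the membrane arm, ranged from mt-Nd4 at 1218, 959 and 886 RPKM to mt-Nd4l at 394, 322 and 307 RPKM. Between them were mt-Nd1 (mean 855 RPKM), mt-Nd6 (746), mt-Nd5 (655), mt-Nd3 (610) and mt-Nd2 (551). Nuclear core subunits carry the electrons from NADH towards quinone. Ndufs8, an iron-sulphur subunit, was at 47.4 ± 5.26 RPKM (SD, n = 3). Ndufv2, Ndufs7, Ndufs3 and Ndufv1, which carries the FMN that accepts electrons from NADH, followed at 32.7, 26.9, 26.6 and 23.6 RPKM. Ndufs1, the iron-sulphur subunit of the largest size, was the lowest at 12.0 ± 0.946 RPKM.

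The 29 listed accessory subunits of complex I spanned 151-fold in RPKM, from Ndufa1 to Ndufb2, whose deposited exon lengths are 419 and 5628 bases. Ndufa1, needed for assembly of the membrane arm, stood at 811, 716 and 702 RPKM and was by RPKM the only nuclear member in the range of mitochondrial genes, 45th of all 7676 genes. Per kilobase of the principal transcript, Atp5b at 439.6 also lay above the lowest of them, mt-Nd4l at 341.1. The Ndufa1 mean of 743 ± 59.6 RPKM was 5.17-fold that of the nuclear subunit of complex I next in RPKM, Ndufa2, at 150, 141 and 140 RPKM. Ndufa6 came next at 87.0 ± 6.77 RPKM. At the other end, Ndufab1, the mitochondrial acyl carrier protein, was at 4.94 ± 0.392 RPKM and Ndufb2 at 4.92 ± 0.376 RPKM. The 3 libraries of Ndufa1 did not overlap with those of any other nuclear member. Ndufb4, at 38.1, 35.3 and 32.3 RPKM, lay near the middle of the accessory subunits, whose median was 41.2 RPKM.

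Complex II oxidises succinate and has 4 subunits, all listed. Sdhb, the iron-sulphur subunit, was at 58.4, 56.7 and 56.7 RPKM and Sdha, the flavoprotein, at 34.2, 37.0 and 41.2 RPKM. The membrane anchors differed, with Sdhd at 32.2, 33.7 and 35.2 RPKM and Sdhc at 10.1, 9.29 and 8.99 RPKM. Sdhb lay above Sdha, and Sdhd above Sdhc, in every library, while Sdha and Sdhd overlapped. Sdha was among the members that were lowest in replicate 1.

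In complex III, which hands electrons from quinol to cytochrome c, mt-Cytb (cytochrome b) was at 2126, 1610 and 1489 RPKM. The 8 nuclear members stayed within 2.4-fold of each other, the narrowest range of the nuclear sets of complexes I, III, IV and V. Cyc1 (cytochrome c1), a nuclear subunit of complex III outside the naming rule, is not among them and was at 69.6 RPKM. Uqcr11 at 98.4 ± 7.75 RPKM (SD, n = 3), Uqcr10 at 98.0 ± 6.19 and the core protein gene Uqcrc1 at 94.0 ± 1.8 were the highest and overlapped. Uqcrc2, the other large core protein gene, was at 55.1 ± 3.85 RPKM. Uqcrb at 49.4, Uqcrq at 47.4 and Uqcrfs1, the Rieske iron-sulphur protein, at 41.0 ± 2.78 RPKM were the lowest.

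Complex IV, cytochrome c oxidase, reduces oxygen. Its catalytic core comes from mt-Co1, mt-Co2 and mt-Co3, the 3 highest members of the set after averaging. mt-Co2, which receives electrons from cytochrome c, was at 2831, 2186 and 2092 RPKM. mt-Co1 was at 2381, 2053 and 1924 RPKM and mt-Co3 at 2076, 1779 and 1673 RPKM. mt-Co1 overlapped with both others, whereas the lowest mt-Co2 library lay above the highest mt-Co3 library. Each of the 3 lay above every nuclear member in every library. Of the nuclear subunits, Cox4i1 at 273 ± 19.1 RPKM, Cox8a at 263 ± 17.7 and Cox6a1 at 232 ± 13.6 were the highest.

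Isoforms of complex IV known from other tissues were low or not listed. Cox6a2, the heart and skeletal muscle isoform, was at 5.19, 5.31 and 4.94 RPKM, and Cox6a1, the ubiquitous isoform, was 45.0-fold above it. Cox6b2, the testis isoform, was at 9.14, 5.79 and 5.01 RPKM, and Cox6b1, at 204 ± 18.6 RPKM, was 30.8-fold above it. Replicate 1 was the high library for Cox6b2, which was represented by 84, 52 and 39 reads. Cox4i2, Cox7a1, Cox7b2, Cox8b, Cox8c and Ndufa4l2 were not in the inbred list, whose lowest mean was 2 RPKM, and their levels were not analysed here. Their listed counterparts were Cox4i1, Cox7a2 (102.5 RPKM), Cox7b (108.7), Cox8a and Ndufa4 (159 ± 5.18), the last a subunit of complex IV despite its name. Cox7a2l, which helps join complexes into supercomplexes, was at 70.2 ± 2.37 RPKM.

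In complex V the mitochondrial genes mt-Atp8 (1259, 1124 and 1055 RPKM) and mt-Atp6 (894, 864 and 736 RPKM) were above all nuclear members of the complex. Of the 5 subunits of the F1 head, the catalytic beta subunit gene Atp5b was at 187, 198 and 212 RPKM and the alpha subunit gene Atp5a1 at 158, 158 and 172 RPKM. By RPKM the central stalk genes were lower: Atp5e at 69.7 ± 6.6 RPKM (SD, n = 3), Atp5d at 59.6 ± 1.6 and Atp5c1, the gamma subunit, at 55.3 ± 3.34. Atp5b and Atp5a1 were 3.59-fold and 2.94-fold above Atp5c1. Part of this order turned with the length used: per kilobase of the principal GENCODE M21 transcript, Atp5e was at 290.8, above Atp5a1 at 206.6 and below Atp5b at 439.6. Atp5l, a membrane subunit, was at 172 ± 5.07 RPKM, while Atp5f1 (33.1) and Atp5j (24.9), both of the outer stalk, were among the lowest of the complex.

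The c subunit, whose ring turns as protons pass, is made from 3 genes that encode the same mature protein. By RPKM, Atp5g2 gave 71.4% ± 0.643 (SD, n = 3) of their sum, Atp5g3 23.9% ± 0.664 and Atp5g1 4.77% ± 0.138. This order depended on the length by which reads were divided. Per kilobase of the principal GENCODE M21 transcript the shares were 44.8%, 51.7% and 3.52%, so Atp5g3 then led, and Atp5g1 was the lowest either way. Both lengths of Atp5g1 are long, 4908 and 4715 bases, against 731 and 714 for the principal transcripts of Atp5g2 and Atp5g3. The size of its share therefore rests on that length. In reads Atp5g1 had 1062, 1023 and 849, Atp5g2 had 2141, 1953 and 1699, and Atp5g3 had 2327, 2199 and 1987. Of the words of 31 bases in Atp5g2, 87.7% also occur in transcripts of other genes, so its reads can be split between copies.

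The assembly factors, which help build the complexes but are not part of them, were all among the lower members. For complex I, 4 of the 8 factors with the Nduf prefix were listed: Ndufaf2 at 11.9 ± 1.03 RPKM, Ndufaf3 at 10.3 ± 0.879, Ndufaf1 at 6.45 ± 0.44 and Ndufaf4 at 2.72 ± 0.0427 (SD, n = 3). For complex IV, 7 of 9 were listed, from Cox10, which makes the heme group of the enzyme, at 6.57 ± 0.393 RPKM to Cox11, a copper delivery factor, at 2.53 ± 0.406. Cox16 and Cox18 were at 2.55 and 2.59 RPKM. The medians were 4.24 RPKM for the 13 genes of this class and 53.0 RPKM for the 77 nuclear subunits and isoforms. Ndufaf5, Ndufaf6, Ndufaf7, Ndufaf8, Cox14 and Cox20 were not listed.

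Neighbours in the order of levels were mostly not distinct. Of the 102 adjacent pairs among all members, 12 had 3 libraries of the higher gene all above the 3 of the lower. Among these were mt-Cytb over mt-Atp8, mt-Nd2 over mt-Nd4l and mt-Nd4l over Cox4i1. The remaining 90 pairs overlapped.

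The length used for RPKM also bears on the order of nuclear members. The deposited exon length often differs from the length of a gene's main transcript. For 17 of the 90 nuclear members it was over 2 times the length of the principal GENCODE transcript, and for none of the mitochondrial genes. For some it was shorter, as in Cox5b with 566 bases against 865. Ndufb7 had the largest ratio, 7.26, and moved from 14.5 RPKM to 105.2 on the same scale per kilobase of that transcript. Cox6c had a ratio of 7.09 and moved from 26.5 to 187.7, while Ndufa11 (4.88) moved from 17.3 to 84.5. Ndufa1, with a ratio of 1.0, stayed at 743, and Ndufb2 stayed low at 6.34. The principal transcript taken for Ndufb2 is itself long, at 4371 bases against 419 for Ndufa1, so its low place still rests on length. In reads, Ndufb2 had 495, 456 and 360, and Ndufa1 had 5673, 4889 and 4159. The principal transcript of Ndufab1 is also long, at 3479 bases. Across the 90 genes the 2 orders had Spearman's rho of 0.857. Level and exon length had a rho of −0.591, against −0.301 over all listed genes; these points share libraries, and RPKM is itself divided by that length.

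**Figure D2:**
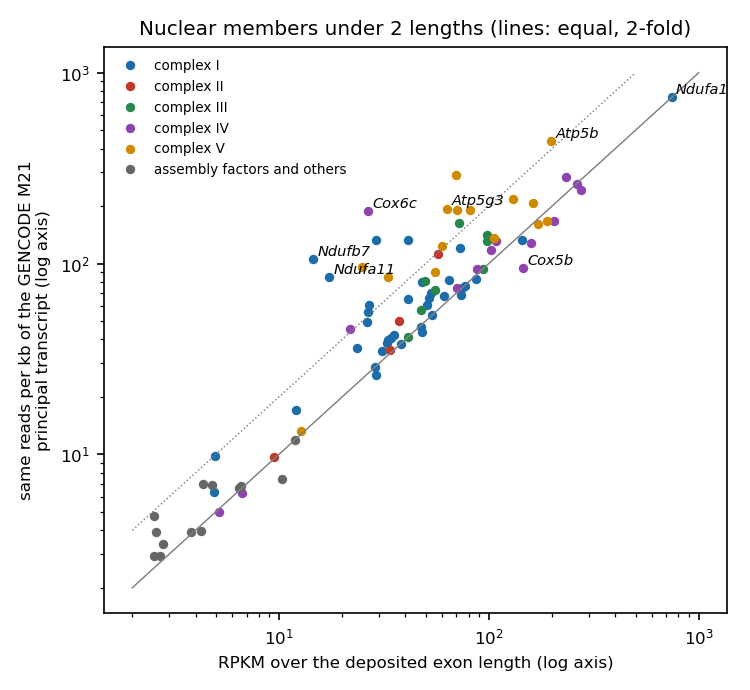
Mean level of the 90 nuclear members in inbred wild type over the deposited exon length (x, RPKM, log axis) and per kilobase of the principal transcript (y, log axis), with lines at equality and 2-fold. Ndufb7, Cox6c and Ndufa11 lie above the 2-fold line, and Ndufa1 lies on the line of equality at 743.

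The 3 inbred libraries differed in the share of these genes. All 13 mitochondrial genes were highest in replicate 1, as were 68 of the 90 nuclear members (75.6%) and 29.6% of all listed genes. The median log2 difference of replicate 1 minus replicate 3 was 0.36 for the mitochondrial genes, with a range of 0.26 to 0.53, 0.14 for the nuclear members and −0.07 for all listed genes. This difference fell with exon length over all listed genes (Spearman's rho −0.497, n = 7676) and less so over the nuclear members (−0.248, n = 90), while over the mitochondrial genes it was 0.148 (n = 13). Genes of a library share its preparation and depth, and the part of gene length or RNA quality in this difference was not tested. Replicate 1 alone raised the members' share of listed RPKM to 4.58%, against 3.95% and 3.9% in replicates 2 and 3.

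**Figure D3:**
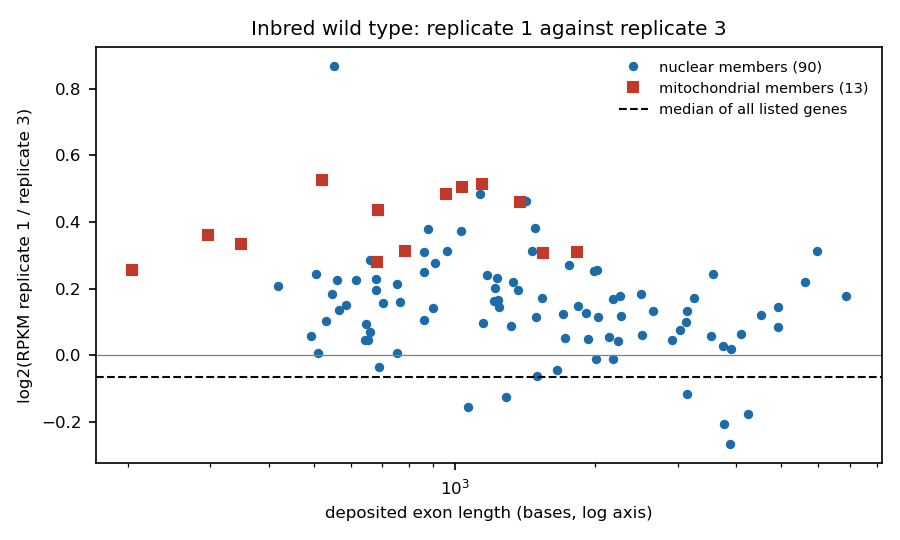
Log2 ratio of RPKM in inbred replicate 1 over replicate 3 for each member against its deposited exon length (log axis); squares are mitochondrial and circles nuclear, and the dashed line is the median of all listed genes. The squares lie between 0.26 and 0.53, all above the dashed line at −0.07.

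The tables also hold the authors' normalized expression value, a number with no stated unit. Divided by the reads behind the RPKM and set to 1 for the median listed gene, it shows which members were given less than other genes for the same reads. For 18 of 103 members (17.5%) it was below 0.5, against 550 of 7676 listed genes (7.17%). It was below 0.5 for 8 of 15 members with more than 50% of their 31-base words in transcripts of other genes, for 8 of 33 with 10% to 50%, and for 2 of 55 with less. The latter 2 were Atp5b at 0.209 and mt-Atp8 at 0.0927. mt-Atp6, with the copy in Gm10925 printed above, had 0.0124, and mt-Nd4l, with bases 1 to 294 of 297 also in Gm10222, was listed at 0 in the normalized values although 1954, 1559 and 1290 reads stood behind its RPKM. Shared sequence did not always go with a low value: mt-Nd3, with 98.1% of words shared, had 0.916, and mt-Co3, with 99.9%, had 0.82.

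**Figure D4:**
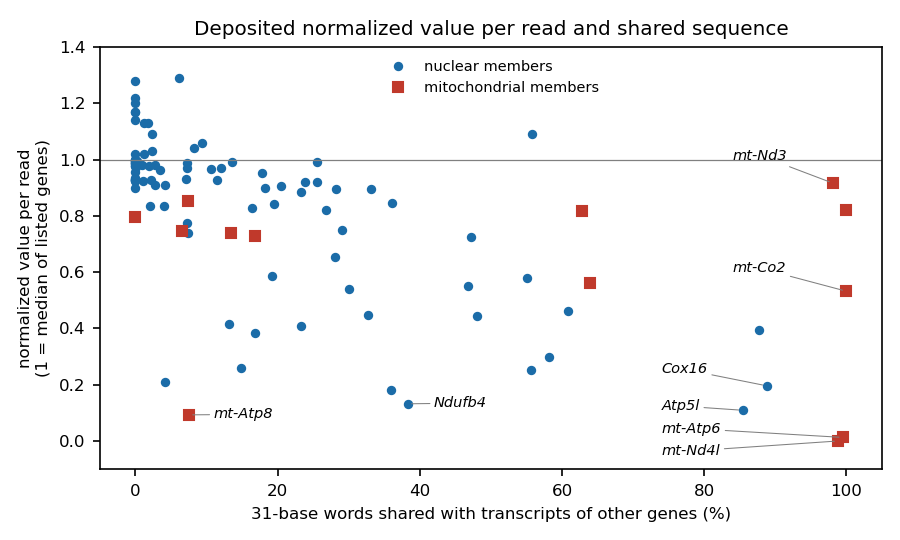
Authors' normalized value per read in inbred wild type, relative to the median listed gene, against the percentage of a member's 31-base words that occur in transcripts of other genes. mt-Nd4l and mt-Atp6 lie at or near 0 with almost all words shared, Ndufb4 lies at 0.132, and mt-Nd3 lies near 1 in spite of sharing.

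Setting cKO against mixed wild type asks which genes differ when Sip1 is lost on a shared kind of background. All 4 members in these tables were lower in cKO: mt-Atp6 by 5.6-fold, Ndufa1 by 2.35-fold, mt-Nd6 by 2.23-fold and Ndufb4 by 1.28-fold in mean RPKM. The other 99 members were not analysed in these groups. The 190 genes of these tables are a selection made on the same libraries: in each of them the authors' normalized means differed by at least 2.5-fold, so the members' changes are a description of listed genes and not independent evidence. With limma at an adjusted p under 0.05, 189 of the 190 genes were called (99.5%), 45.3% of the genes tested as lower. The 3 libraries of the groups did not overlap in 100% of the genes, with cKO the lower in 45.8%. A count of 4 called members of 4 is therefore the background rate. In whole lenses, fewer cells of a type and less RNA per cell cannot be told apart.

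mt-Atp6 had the largest difference. The mixed wild type libraries had 893, 962 and 778 RPKM, and the cKO libraries had 113, 205 and 152 RPKM. The groups were far apart, with the highest cKO library below the lowest mixed library. The log2 fold change, on log2(RPKM + 0.5), was −2.52 (SE 0.18, limma adjusted p = 1.35e-07), and it was the third most negative of the 190. Behind these values stood 23508, 28280 and 23360 reads, against 2112, 3612 and 2697 reads for the cKO.

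mt-Nd6, from the same circular genome, had a smaller fold. Its mixed wild type libraries had 1016, 1166 and 907 RPKM, and its cKO libraries 363, 592 and 432 RPKM. The groups did not overlap, and replicate 2 was the highest library in each. The log2 fold change was −1.18 (SE 0.17, limma adjusted p = 4.01e-05). The ratio of mt-Nd6 to mt-Atp6 within a library was 1.14, 1.21 and 1.16 for the mixed libraries but 3.21, 2.89 and 2.83 for the cKO libraries, which did not overlap. The log2 difference of the ratio was 1.34, and the exact two-sided permutation test gave p = 0.1, the smallest that 3 against 3 libraries allow. The ratio also separated the 2 wild type groups, at 1.03, 0.789 and 0.866 in the inbred libraries. There the log2 difference, mixed minus inbred, was 0.40, with the same exact permutation p = 0.1. Reads shared between mt-Atp6 and Gm10925, and reads of the strand opposite to mt-Nd6, can enter this ratio, and their part was not tested. The other mitochondrial RNAs were not analysed in these groups.

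For Ndufa1 the mixed wild type libraries had 955, 1258 and 1078 RPKM, against 478, 444 and 476 RPKM in the cKO libraries. The cKO libraries lay close together, below all mixed libraries. The log2 fold change was −1.23 (SE 0.11, limma adjusted p = 8.76e-07), close to that of mt-Nd6. The ratio of mt-Nd6 to Ndufa1 in a library ranged from 0.841 to 1.06 over the mixed and from 0.758 to 1.33 over the cKO libraries, and its log2 difference was 0.05 (exact permutation p = 0.9). Median centring of each library deepened the log2 fold changes to −2.11 for Ndufa1, −2.06 for mt-Nd6 and −3.40 for mt-Atp6, while quantile normalization gave −1.66, −1.53 and −1.89.

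Ndufb4 had a small difference in RPKM and a large one in normalized values. In RPKM the mixed libraries had 34.8, 38.1 and 37.7 and the cKO libraries 29.0, 28.8 and 28.3, which did not overlap. The log2 fold change was −0.35 (SE 0.07, limma adjusted p = 0.000716), the third smallest fold in RPKM among the 190 genes. Its sign depended on the scaling: under quantile normalization over the 190 genes it was 0.020 (limma adjusted p = 0.677), and under median centring −1.24. The median log2 fold change of all 190 genes was 1.37, against 0.18 and 0.49 under these scalings, so a value near 0 lies at a different place among the genes in each. These scalings give the libraries a common distribution or median, whereas all 190 genes were listed for a difference between the groups. They therefore cannot decide the direction of Ndufb4.

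The authors' normalized values, by which all 190 genes differ at least 2.5-fold, departed from RPKM for 2 of the members. Ndufb4 had 200, 235 and 213 in the mixed and 35.4, 27.6 and 31.1 in the cKO libraries, a 6.89-fold difference against 1.28-fold in RPKM. mt-Atp6 was at 238, 282 and 236 against 15.7, 32.1 and 23.3, a 10.6-fold difference against 5.6-fold. For Ndufa1 and mt-Nd6 the 2 measures were close, 2.52-fold for both in normalized values. The normalized value per read of Ndufb4 was 0.127, 0.122 and 0.11 for the mixed libraries and 0.0381, 0.0316 and 0.0362 for the cKO. That of Ndufa1 lay between 0.628 and 0.655 in the mixed and between 0.914 and 0.986 in the cKO libraries. For mt-Nd6 it was also higher in cKO, at 0.942, 1.0 and 0.981 against 0.747, 0.672 and 0.669. For mt-Atp6 it was lower, at 0.00742, 0.00889 and 0.00865 against 0.0101, 0.00998 and 0.0101. Here the value was not set to the median gene of a library, so it holds any factor common to a library. The part of depth in it was not tested. Ndufb4 has 38.3% of its words in other genes, most of them in Ndufb4c, and Ndufa1 has 2.06%; the part of shared sequence in the gap was not tested.

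Markers of other cells moved in the same libraries. Of the 8 erythroid markers 2 were among the 190 genes: Hba-a2 had 475.5 ± 73.3 RPKM in the mixed and 108.9 ± 29.5 in the cKO libraries (SD, n = 3), and Hba-x had 6.7 ± 2.19 and 1.64 ± 0.88. Of the 7 muscle markers Actn2 was lower in cKO, at 1.14 against 8.77 RPKM, and Tnnt1 higher, at 10.1 against 0.229. The vessel marker Tek was at 8.31 RPKM in cKO and 2.71 in mixed wild type, and the neuronal marker Elavl4 at 0.489 and 2.94. Crygs, the only one of 8 lens fibre markers among the 190, was at 3725 against 416 RPKM. The part of these cells in the lower levels of the 4 members was not tested.

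**Figure D5:**
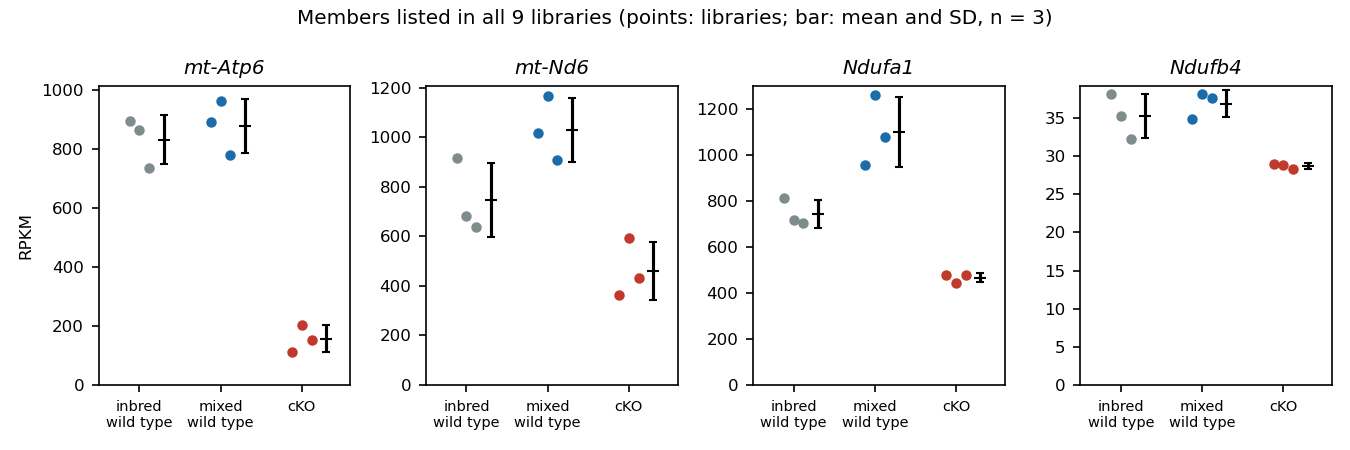
RPKM of the 4 members listed in all 9 libraries, with axes starting at 0; points are libraries, and bars are means with SD (n = 3). For all 4 genes the 3 cKO libraries lie below the 3 mixed wild type libraries, by 5.6-fold in mt-Atp6 and 1.28-fold in Ndufb4.

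Mixed against inbred wild type asks how far these genes differ between genetic backgrounds. The mixed lenses also carried the floxed alleles, and their libraries were deeper. It covers the 128 genes present in all 9 libraries, of which limma called 63 (49.2%), 30.5% as higher in mixed wild type, and whose groups did not overlap in 57% (35.2% with mixed the higher). Ndufa1 and mt-Nd6 were higher in the mixed background and the other 2 members were not called, a share of called members close to that background. The comparison shares its mixed libraries with the comparison above, so the 2 are not independent. Its genes also belong to the selection made on the mixed and cKO libraries, where each member was listed with mixed wild type the higher. A higher mixed value here is therefore a description and not independent evidence. Of the calls, 38.1% were lower in mixed wild type, against 50% under quantile normalization and 61.7% under median centring. Directions here thus depend on the scaling, and a scaling over genes so selected cannot decide them.

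Ndufa1 was at 811, 716 and 702 RPKM in inbred wild type, below all 3 mixed libraries. The log2 fold change was 0.56 (SE 0.13, limma adjusted p = 0.0061), or 1.48-fold, and the call was lost under quantile normalization (0.15, limma adjusted p = 0.115). mt-Nd6, at 917, 682 and 638 RPKM in inbred wild type, overlapped with the mixed libraries at the edge, where inbred replicate 1 was above mixed replicate 3. Its log2 fold change was 0.48 (SE 0.15, limma adjusted p = 0.0259). This call was lost under quantile normalization (log2 fold change 0.11, limma adjusted p = 0.379) and under median centring (0.33, limma adjusted p = 0.0954). It was also lost without inbred replicate 2 (0.42, limma adjusted p = 0.103), inbred replicate 3 (0.37, limma adjusted p = 0.135) or mixed replicate 2 (0.38, limma adjusted p = 0.0625), where the fold changes stayed nearer to the full value.

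mt-Atp6, at 894, 864 and 736 RPKM in inbred wild type, overlapped with the mixed libraries, and its log2 fold change was 0.08 (SE 0.12, 95% interval −0.20 to 0.35, limma adjusted p = 0.597). Ndufb4, at 38.1, 35.3 and 32.3 RPKM, overlapped as well, with a log2 fold change of 0.07 (SE 0.09, 95% interval −0.14 to 0.27, limma adjusted p = 0.553). The direction of both turned under quantile normalization and median centring. mt-Atp6 was called in opposite directions: lower in mixed wild type under quantile normalization (−0.26, limma adjusted p = 0.00782) and higher in normalized values (0.52, limma adjusted p = 0.00411). Ndufb4 was called higher in normalized values alone (0.66, limma adjusted p = 0.00165). Those values are not known to share a scale between the inbred and the mixed-background tables.

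Against inbred wild type, the cKO libraries were again lower for the 4 members. This comparison reuses libraries of both comparisons above and is given side by side with them, not as support. limma called 120 of 128 genes (93.8%), 60.9% as lower in cKO. The groups did not overlap in 93.8%, with cKO lower in 61.7%. The log2 fold changes were −2.44 (SE 0.16) for mt-Atp6, −0.70 (SE 0.17) for mt-Nd6, −0.67 (SE 0.10) for Ndufa1 and −0.29 (SE 0.09) for Ndufb4, with limma adjusted p of 1.91e-09, 0.000898, 1.25e-05 and 0.00848. The mt-Atp6 change was the most negative of the 128. In order of mean RPKM, then, mt-Atp6 and Ndufb4 had 2 overlapping wild type groups above cKO, and Ndufa1 had 3 groups that did not overlap, with mixed wild type the highest and cKO the lowest. Under quantile normalization Ndufa1 (−0.90, limma adjusted p = 0.0654) and mt-Nd6 (−0.80, limma adjusted p = 0.222) had larger log2 fold changes but were no longer called, and Ndufb4 turned to 0.12.

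Promoter windows were searched for words of factors known for nuclear genes of mitochondria, a feature the choice of members did not use. RefSeq windows were found for 76 of the 90 nuclear members, 5877 listed genes and 27025 genes in all. Members could be matched through a synonym, and listed genes by the same symbol only. Both strands were searched. The full NRF1 word, a palindrome, was in 7.89% of members, 2.86% of listed genes and 1.07% of all genes. The 6 members are shown because each carries the whole word, in capitals with 10 bases on either side.
Atp5g2 NRF1 word: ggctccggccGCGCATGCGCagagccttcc
Atp5k NRF1 word: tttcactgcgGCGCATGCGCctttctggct
Cox6a1 NRF1 word: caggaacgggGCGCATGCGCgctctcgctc
Ndufa11 NRF1 word: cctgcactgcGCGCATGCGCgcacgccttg
Ndufaf4 NRF1 word: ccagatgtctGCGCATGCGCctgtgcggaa
Uqcrc1 NRF1 word: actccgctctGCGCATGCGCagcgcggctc
These lie at chr15:102671070-102671099 (minus), chr5:108434430-108434459 (minus), chr5:115349101-115349130 (minus), chr17:56717692-56717721 (plus), chr4:24897960-24897989 (plus) and chr9:108936668-108936697 (plus), in the order printed. In Uqcrc1 the word lies after the start and in the other 5 before it. The 6 genes were not alike in level, from Ndufaf4 at 2.72 RPKM to Cox6a1 at 232 RPKM.

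The NRF1 word with 2 free central bases, which includes the full word, was in 26.32% of members, 18.05% of listed genes and 7.0% of all genes. The ETS word CCGGAAG was in 26.32%, 22.94% and 9.93%, so members and listed genes had similar shares. The YY1 word was in 7 members (9.21%, against 3.1% of listed and 1.0% of all genes). It is shown in capitals for Ndufs4, at chr13:114388045-114388074 (minus), and for the core subunit gene Ndufs7, at chr10:80249463-80249492 (plus), where it begins 35 and 24 bases after the start.
Ndufs4 YY1 word: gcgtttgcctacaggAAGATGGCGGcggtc
Ndufs7 YY1 word: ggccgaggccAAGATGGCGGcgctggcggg
TGACCTTG, the ERRa word, was in Atp5g3, Atp5l, Ndufs5 and Sdhd (5.26%, against 1.29% and 1.76%). At least 1 of these words was in 40 of the 76 windows. This count was not made for listed or all genes, so it sets nothing apart in the members. CACCTG, added to the search after the values had been seen, was in 18.42% of members, 18.73% of listed genes and 22.56% of all genes, so Ndufa1 shared it with 13 other members that were not analysed in cKO. These shares are descriptions with no test.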

How the data were processed

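RNA of 9 lens libraries was sequenced. Per the labels, a TruSeq v2 kit made the libraries from total RNA; the labels call the replicates independent, and p-values measure the spread between them. CASAVA 1.8.2 is named per the submitters' processing notes, with aligner, annotation and build not given in the sources used here. The authors deposited RPKM and, beside it, normalized expression values (a score without unit), per the file headers, and the inbred files add exon lengths. Of 7700 inbred rows, 24 with repeated symbols were left out. Multiplied by exon length, low RPKM values were whole multiples of 1 step per library (100% within 0.1 reads), which gave depth and reads. Replicates differed by more than counting noise (chi-square per degree of freedom 6.97 to 54.5).

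Groups were compared with limma 3.58.1 (R 4.3.3) and a mean-variance trend, using log2(RPKM + 0.5) of all genes averaging 1 RPKM or more, adjusted by Benjamini-Hochberg at 0.05 and tested on simulated data. Python 3.11.15, numpy 2.4.6, pandas 2.3.3, scipy 1.17.1 and matplotlib 3.10.9 did the rest. GENCODE M21 gave transcript lengths and shared words. The members, gene lists and tests were chosen with earlier results of these data known. Genes named were every member in all 9 libraries, all mt- genes, the 3 highest and lowest of each complex, isoform families and core subunits, except 1 gene that is not reported here; Ndufb7, Cox6c and others under length, sharing and promoters were chosen after their values were seen, and 2 genes of chromosome 18 have no sequence shown. Alternatives were quantile normalization, median centring, normalized values (pseudocount 10), pseudocounts 0.1 and 1, no filter or 2 RPKM, no trend, all 9 libraries jointly, the replicate block and each library left out, with 3 added after the data were seen (genes in all 9 libraries, reads, principal transcript length).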

Additional observations from a re-analysis of the deposited data

How the results depend on the processing

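The 17 alternatives for cKO against mixed wild type, and 16 for each of the other pairs, left the counts of calls within 1.5 times. Leaving out each library in turn gave 185 to 190, 46 to 62 and 118 to 121 calls for cKO against mixed, mixed against inbred and cKO against inbred. Members' summed share of listed values was 2.59% with normalized values, 1.22% without mitochondrial genes and 2.46% in reads (3.92% to 4.26% with a library left out). Their median was 60.4 RPKM over genes of at least 5 RPKM and 80.9 with principal transcript lengths (50.5 to 54.0 with a library left out). Directions turned under quantile normalization for Ndufb4 (0.020 against mixed and 0.12 against inbred for cKO, −0.023 for mixed against inbred) and for mt-Atp6 in mixed against inbred (−0.26, limma adjusted p = 0.00782). Under median centring the latter comparison gave −0.080 for Ndufb4 and −0.070 for mt-Atp6, and with each library left out mt-Atp6 ranged from −0.0074 (without inbred replicate 3) to 0.16. The median log2 fold change of all genes moved in mixed against inbred from 0.08 to −0.02 (quantile) and −0.07 (centring), and in cKO against inbred from −0.57 to −0.34 and −0.91; the causes were not tested. With the replicate number as a block the calls were 189, 47 and 120 and no call of a member changed; the deviations of same-numbered libraries correlated at −0.146 to −0.1, −0.524 to −0.146 and −0.013 to 0.239, and not every library correlated best with its own number, so the numbers were not taken to pair the libraries. Groups of 3 libraries limit the precision of every value.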

Other observations

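Genes that feed electrons to the complexes and the rest of energy metabolism were listed in the inbred lens as well. All 18 citric acid cycle genes were listed, with Idh2 at 80.1 RPKM and Mdh2 at 70.9 RPKM the highest, and their sum was 515 ± 8.01 RPKM (SD, n = 3). Of the 20 symbols of the glycolysis list, in which Pkm and Pkm2 name the same gene, 17 were present. They were led by Pkm2 (756 RPKM), the enolase gene Eno1 (241) and the glucose transporter gene Slc2a1 (226), and they summed to 2247 ± 38.4 RPKM. All 21 genes of mitochondrial protein import were listed, among them the chaperonin gene Hspd1 at 119 RPKM. Electron carriers and their enzymes were listed for 11 of 15 genes. Etfb, a subunit of the electron transfer flavoprotein, was the highest at 159 RPKM, and Cycs (cytochrome c) was at 17.4 RPKM. Cyc1 (cytochrome c1), kept in this list though it is a subunit of complex III, was at 69.6 RPKM. Of 24 symbols of assembly factors and related genes outside the naming rule, in which Uqcc and Uqcc1 name the same gene, 13 were listed. The highest was Atpif1 at 35.9 RPKM, which encodes an inhibitor of ATP synthase and is not an assembly factor. Sdhaf1 followed at 12.9 RPKM.

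The regulators were low. Of 19 symbols of mitochondrial transcription and biogenesis, in which Peo1 and Twinkle name the same gene, 12 were listed, at a median of 5.29 RPKM. Among them were Yy1 at 13.8, Gabpa at 7.29, Tfam, which packages mitochondrial DNA, at 6.23, the mitochondrial RNA polymerase gene Polrmt at 3.82 and Nrf1 at 2.03 RPKM. Ppargc1a, Ppargc1b and Esrra, which encodes ERRa, were not in the inbred list. No gene of these 6 lists was among the 190 genes of the mixed wild type and cKO tables.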
